A study of Rattus norvegicus with 6 samples.

Results

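The long non-coding RNAs (lncRNAs) of the adrenal gland were compared with those of 4 peripheral tissues, liver, cortex, outer medulla and left ventricle. The animals of all groups were male rats of the inbred BN (Brown Norway) strain aged 6 weeks, with no treatment named, and each tissue was 1 sample. Each of 6 tissues had 2 columns of deposited FPKM values. The 2 adrenal columns and the 8 columns of the other 4 tissues entered the comparison, 10 of 12 columns in all, and the 2 hypothalamus columns stayed outside it. FPKM is the number of fragments scaled by transcript length and library total. For transcripts hardly longer than a fragment this scaling is unsteady, so ranks, sums and shares of FPKM that include them are approximate. All 2455 transcripts with values, at 1646 loci, were considered. Paired values below are column 1 first and column 2 second. Whether the columns stand for separate animals is not labelled. All p-values therefore describe the spread between columns alone, and that spread may be technical. The organ of the cortex sample is not labelled, and outer medulla names a region of the kidney. The adrenal label names the gland without saying whether its outer or inner part was taken, and no age other than 6 weeks was sampled.

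The adrenal gland joins 2 endocrine tissues. Its outer part makes steroid hormones from cholesterol under the control of pituitary adrenocorticotropin and angiotensin. Its inner part consists of chromaffin cells, which derive from the neural crest and secrete catecholamines. LncRNAs are transcripts without a long open reading frame. Some act on neighbouring genes, some are hosts of small RNAs, and for most no role is known. Because whole tissue was sequenced, fewer cells of a type and less RNA per cell cannot be told apart in any difference given here.

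The depth implied by the steps between low FPKM values was 13500000 and 17400000 fragments in adrenal gland and from 3870000 to 18300000 in the columns of the 4 tissues, with the lowest in liver column 2. The limit that a count of 0 allows, 3 fragments, was for 1 kb of transcript an FPKM of 0.221 and 0.172 in adrenal gland, and 0.776 in liver column 2. For transcripts shorter than 1 kb the limits are higher, and most so for those hardly longer than a fragment. Only counting error is covered by these limits, and a listed 0 may also be a failed estimate. The 2 adrenal columns differed in what they held of transcripts high in other tissues. A set of 91 transcripts reached FPKM 1 in hypothalamus and exceeded the 4 tissues 5-fold there. In adrenal column 2 their median level was 21.1% of that in hypothalamus, in adrenal column 1 it was 4.02%, and 66 of them were higher in adrenal column 2. For the 188 transcripts with the same pattern in liver, the medians were 0 in both adrenal columns, for 90 of left ventricle they were 0.049 and 0.428%, and for 242 of cortex and outer medulla 1.86 and 0.832%. Of those 242, 127 were higher in adrenal column 1 and 69 in column 2. The counts of transcripts higher than each of the 4 tissues, and most of the named calls that change, are also given without adrenal column 2. The marker lists said little about the label. Of 24 adrenal cortex markers 1 (Cyp11b3) was among the reference genes of the table, and of 22 adrenal medulla markers 0.

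The adrenal gland had 113 transcripts higher than each of the 4 tissues. They made up 9.57% of the 1181 transcripts tested, which were those whose mean FPKM reached 1 in any of the 5 tissues. A call required that the largest of the 4 p-values from limma on log2(FPKM + 0.1) stay below 0.05 after Benjamini-Hochberg adjustment. The 113 came from 92 loci. Their median difference to the next tissue was 3.53 on that log2 scale, or 11.5-fold on FPKM + 0.1, with a range of 1.49 to 7.33, beside a median of -2.63 over all transcripts tested. Both adrenal columns lay above all 8 other columns for each of the 113. The same was true of 202 transcripts, 17.1% of those tested, with no test applied. The next tissue was left ventricle for 53, liver for 33, outer medulla for 15 and cortex for 12. Without adrenal column 2, 90 transcripts were called, 76 of them among the 113. Without adrenal column 1, 83 were called, 74 of them among the 113.

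**Figure D1:**
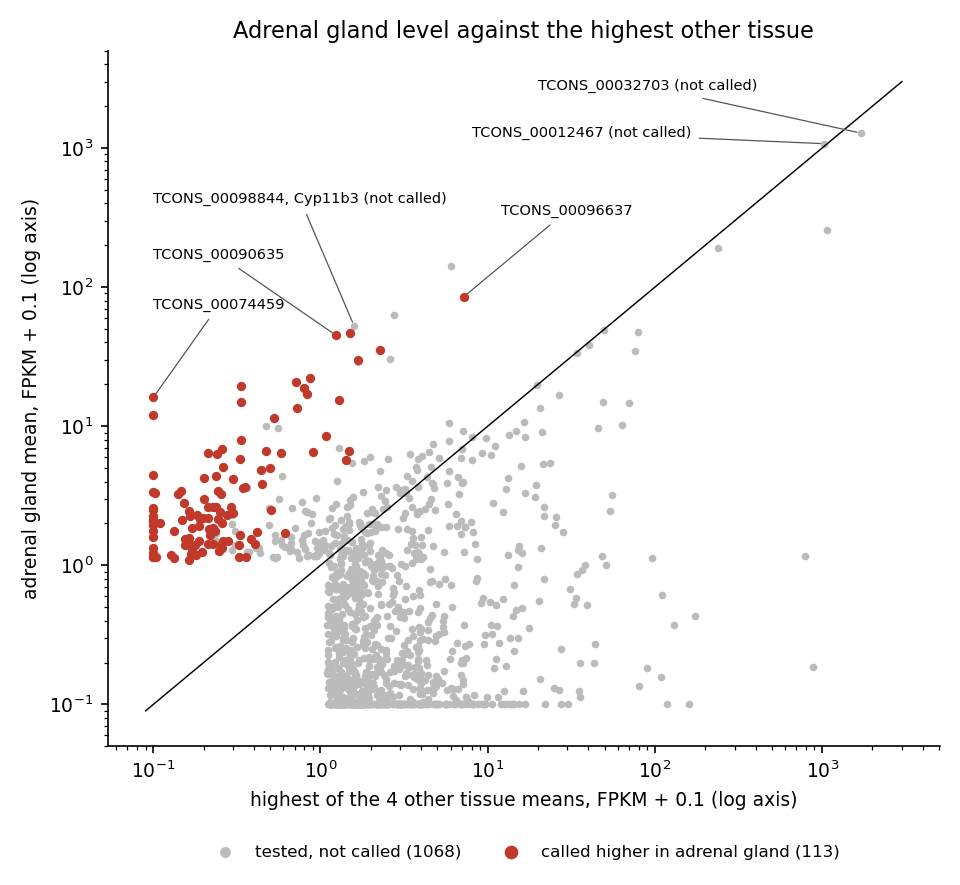
Mean adrenal gland level of each tested transcript (vertical, FPKM + 0.1, log axis) against the highest mean of liver, cortex, outer medulla and left ventricle (horizontal, FPKM + 0.1, log axis), with the line of equal levels. The 113 called transcripts (red) lie above the line at a median adrenal FPKM of 2.20. The most abundant adrenal transcripts are spread around it. Near it are TCONS_00032703 (mean adrenal FPKM 1279 against 1708), TCONS_00012467 (1073 against 1032) and TCONS_00012465 (191 against 238). Well above it are TCONS_00081178 (143 against 5.96), TCONS_00096637 (85.2 against 7.10), TCONS_00096639 (62.7 against 2.64) and TCONS_00098844 (52.4 against 1.49). TCONS_00015674 lies below it (256 against 1071).

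Most of the 113 were weakly expressed. Their median adrenal FPKM was 2.20, 86 were below 5, 16 were at 10 or more and 4 at 30 or more. Together they carried 13.3 and 13.0% of the summed FPKM of the adrenal columns, against 0.128 to 1.02% in the 8 columns of the other 4 tissues. For 12 of them every column of the 4 tissues was listed at 0, and for 32 every such column was below 0.1. In 12 at least 1 other column reached 1. The adrenal columns were 2-fold or more apart for 20 of the 113, and column 1 was the larger in 81.

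None of the transcripts tested was called lower in adrenal gland than in each of the 4 tissues by limma (0 of 1181, 0.0%), and 29 had an unadjusted p below 0.05 in that direction. Both adrenal columns lay below all 8 others for 61 (5.17%). The lowest unadjusted p belonged to TCONS_00060095 (chromosome 2), named here after its values were seen. It was listed at 0 in both adrenal columns, against liver at 0.674 and 1.23, cortex at 1.29 and 0.674, outer medulla at 1.32 and 1.85, and left ventricle at 0.465 and 0.978 (adjusted p = 0.53). The groups did not overlap.

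Several of the most abundant adrenal lncRNAs were also abundant in other tissues. The 10 most abundant held 63.0% of the summed adrenal FPKM, the first 24.9% and the first 2 together 45.8%, and 1 of the 10 was called higher. TCONS_00032703 (chromosome 14) had 1256 and 1302 in adrenal gland, against 3416 and 0 in cortex and 0 in both columns of liver, outer medulla and left ventricle. With cortex columns at 3416 and 0, no difference to the next tissue could be called. It was called higher in the pairs with liver (limma adjusted p = 0.022), outer medulla (0.024) and left ventricle (0.024), and each call was lost without either adrenal column or either column of the paired tissue (limma adjusted p 0.076 to 0.104). TCONS_00012467 (chromosome 1, 11142 bases) had 1231 and 916 in adrenal gland, against left ventricle at 1112 and 953, cortex at 851 and 774, outer medulla at 833 and 837, and liver at 607 and 525. Adrenal column 2 was below left ventricle column 2 there, so these tissues overlapped. TCONS_00015674 (chromosome 10, 267 bases) was among the 8 most abundant but had less in adrenal gland, 293 and 220, than in liver, at 1587 and 555.

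TCONS_00081178 (chromosome 5, 205 bases, no reference gene) had 114 and 171 in adrenal gland, against liver at 0.345 and 6.29, cortex at 3.53 and 1.82, outer medulla at 5.82 and 6.10, and left ventricle at 2.80 and 1.20. The columns did not overlap, but the difference of 4.53 to the next tissue on the log2 scale (SE 1.14) was not called by limma (adjusted p = 0.056). TCONS_00096637 (chromosome 7, 506 bases, no reference gene) was the most abundant of the 113. It had 86.9 and 83.6 in adrenal gland, against liver at 3.13 and 7.03, cortex at 1.41 and 1.27, outer medulla at 1.84 and 1.17, and left ventricle at 5.59 and 8.61. Both adrenal values were above all others (difference 3.60, SE 0.43, limma adjusted p = 0.0021).

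Chromosome 7 carried the only adrenal cortex marker found. Cyp11b3 is a rat member of the family of mitochondrial enzymes that hydroxylate steroids at carbon 11 in the adrenal cortex. TCONS_00098844 (260 bases) overlaps that gene at the locus spanning 115976559 to 116157978 (rn5). It had 60.5 and 44.4 in adrenal gland, against 0 and 2.10 in liver, 0 in both columns of cortex and of outer medulla, and 0.801 and 2.18 in left ventricle. The columns were separate, yet the difference of 5.18 to left ventricle (SE 1.29) was not called over all 4 tissues by limma (adjusted p = 0.054). In single pairs it was called against cortex (limma adjusted p = 7.5e-04), outer medulla (9.3e-04), liver (0.0028) and left ventricle (0.011). The last of these was lost without left ventricle column 1 (0.078) or either adrenal column (0.065 and 0.053). The strand setting of the counting is not known from the labels or headers, so a transcript that overlaps a gene may hold reads of it.

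From the same interval came TCONS_00098852 (984 bases), which the table places antisense to Timm8a1, a gene for a mitochondrial import chaperone. It had 51.4 and 41.6 in adrenal gland, against liver at 0 and 0.306, cortex at 0 and 0.0796, outer medulla at 0 and 0.0643, and left ventricle at 0.231 and 2.55. It was called higher (difference to left ventricle 5.63, SE 1.06, limma adjusted p = 0.015). The call was lost without left ventricle column 1 (limma adjusted p = 0.061), adrenal column 1 (0.134) or adrenal column 2 (0.107). RefSeq on the GRCr8 assembly puts that symbol on another chromosome, so the assignment to Timm8a1 is uncertain. A neighbouring locus (116171564 to 116196788) gave 3 more calls. TCONS_00095494, antisense to ENSRNOG00000047072, had 7.03 and 5.62 in adrenal gland, against 0 and 0.224 in left ventricle, 0.0305 and 0 in cortex and 0 in liver and outer medulla (difference 5.15, SE 0.53, limma adjusted p = 0.0012). TCONS_00095496 had 3.09 and 1.96, and TCONS_00095499 had 2.45 and 1.86 in adrenal gland, with at most 0.253 in any column of the 4 tissues.

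**Figure D2:**
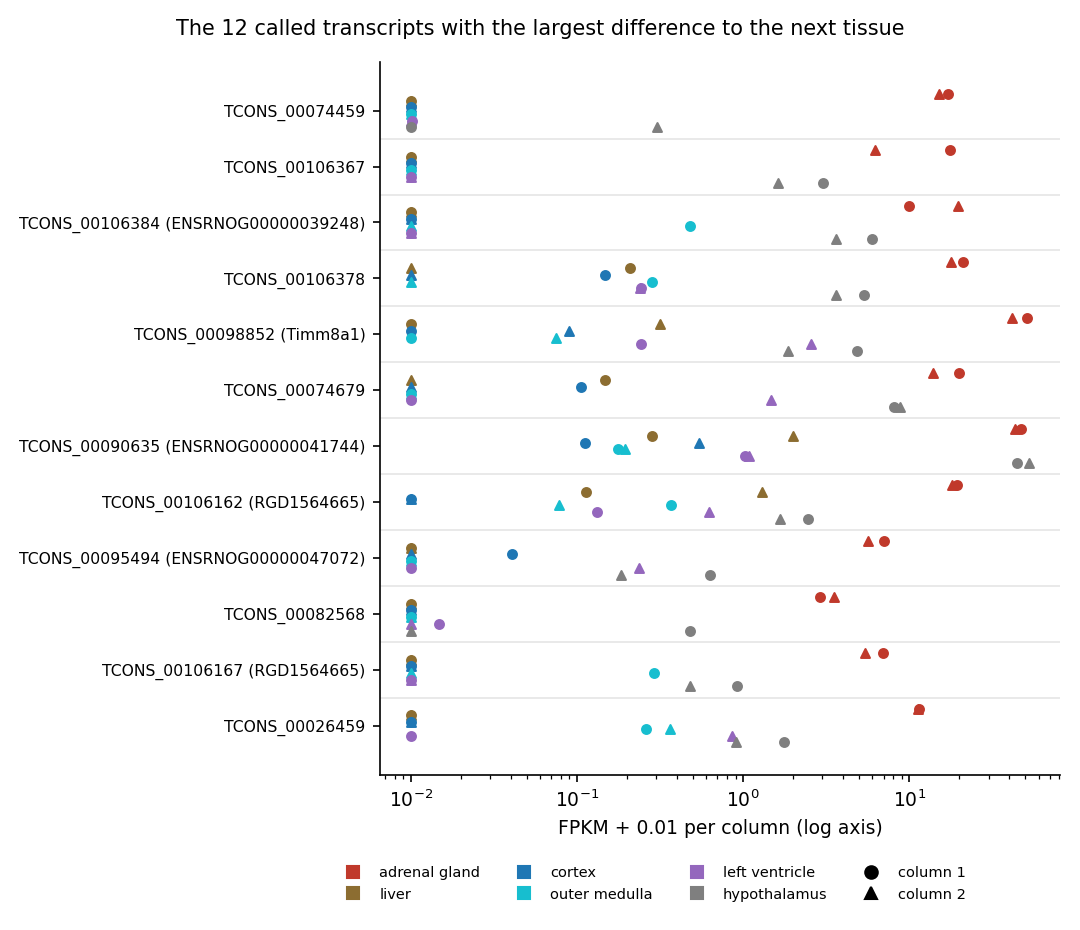
FPKM + 0.01 (log axis) of the 12 transcripts with the largest difference to the next tissue, by tissue (colour) and column (shape), with the reference gene in brackets where the table gives one. The red adrenal values stand right of all values of the 4 tissues, at 2.88 to 51.4 FPKM. The 12 were chosen for low values in the 4 tissues and without regard to hypothalamus (grey), so nothing is read from its place nearer to adrenal gland.

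The largest difference to the next tissue was that of TCONS_00074459 (chromosome 4, 61625469 to 61626957, 325 bases, no reference gene). It had 17 and 15 FPKM in adrenal gland, against 1.8e-04 and 0 in left ventricle and 0 in the other 6 columns. The difference of 7.33 (SE 0.25, limma adjusted p = 1.9e-05) is set by the added 0.1. TCONS_00074458, from the same interval and chosen after its values were seen, had 33.1 and 26.4 in adrenal gland, with a maximum of 1.98 in the 4 tissues. On chromosome 9, TCONS_00106367 (205 bases) had 17.7 and 6.22 in adrenal gland, while each of the 8 columns of the 4 tissues listed it at 0 (limma adjusted p = 1.8e-04). For so short a transcript the limit of a listed 0 is far above that for 1 kb, most of all in liver column 2. These zeros do not show absence, and the p-value does not take the limit into account. TCONS_00106384 (252 bases), from the same interval and with the same limit on its zeros, had 9.91 and 19.7 in adrenal gland. It had 0.468 and 0 in outer medulla and 0 in the other columns of the 4 tissues (limma adjusted p = 0.0031). TCONS_00106378 had 21.1 and 17.8 in adrenal gland, with at most 0.271 in the 4 tissues (difference 5.87, SE 0.80, limma adjusted p = 0.0034). Which of the transcripts listed for 1 interval took the reads depended on the authors' assignment, so single values there are less certain than their sum.

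Some of the calls lay near each other in the genome. Allowing 1000000 bases between neighbouring called intervals, 9 groups with 3 or more calls held 46 of the 113. Without adrenal column 2, 29 of these 46 were still called, and without adrenal column 1, 31 were. Transcripts of 1 interval share reads and are not independent. The bounds of each group were drawn from the calls, and most calls entered the test only through their adrenal level. The share called within a group is therefore largely set in advance and is not read as a result. By chromosome, 21 of the 54 transcripts tested on chromosome 9 (38.9%) were among the calls, and 7 of 25 on chromosome 12 (28.0%). Chromosome 6 had 12 of 64 (18.75%), chromosome 7 had 12 of 85 (14.1%), chromosome 1 had 8 of 156 (5.13%) and chromosome 10 had 1 of 63 (1.59%). Across all chromosomes the share was 9.57%. The 21 calls on chromosome 9 include groups of 11 and 7 neighbouring calls. These shares depend in the same way on how transcripts entered the test, so they are not read as a result either.

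The group with the most calls lay on chromosome 9 from 11060508 to 11560435 (rn5), where 11 of 14 tested transcripts were called. Its listed transcripts summed to 138 and 132 FPKM in adrenal gland and to between 0.890 and 11 in the 8 columns of the 4 tissues. Called members were assigned to ENSRNOG00000039248, ENSRNOG00000049194, ENSRNOG00000049939 or no gene, and these identifiers have no name in the tables used here. A second group on the same chromosome (7319662 to 7862834) held 7 calls of 8 tested and summed to 62.5 and 53.2 in adrenal gland, against 0.457 to 5.55. Of its calls, 5 were assigned to RGD1564665. TCONS_00106162 led them with 19.4 and 18.1 in adrenal gland, against liver at 0.103 and 1.29, cortex at 0, outer medulla at 0.357 and 0.0679, and left ventricle at 0.122 and 0.612 (difference 5.15, SE 1.0, limma adjusted p = 0.017). This call was lost without either adrenal column, cortex column 1, left ventricle column 1, liver column 1 or outer medulla column 2 (limma adjusted p 0.055 to 0.138), and the difference was 3.76 without liver column 1. TCONS_00106167 of the same interval had 6.95 and 5.41 in adrenal gland, against 0.282 and 0 in outer medulla and 0 in the other 6 columns.

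**Figure D3:**
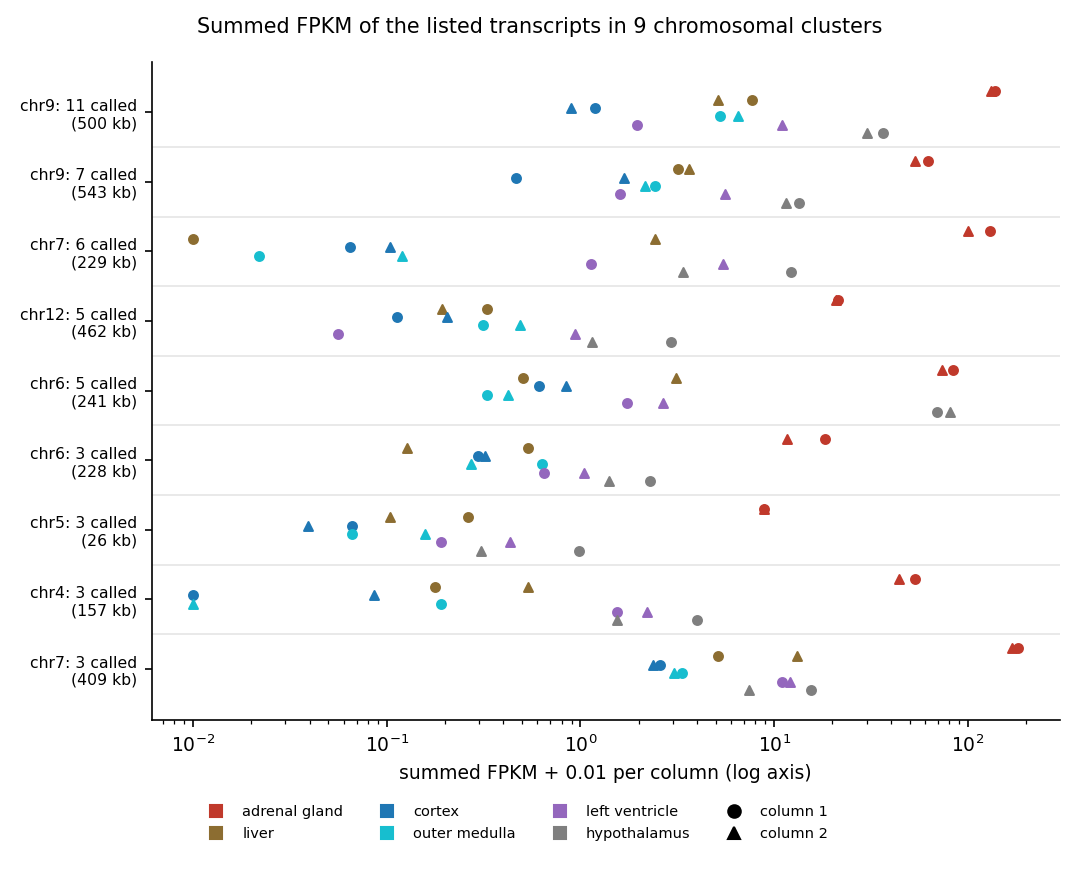
Summed FPKM + 0.01 (log axis) of the listed transcripts in each of the 9 groups of neighbouring calls, by tissue (colour) and column (shape). Adrenal gland (red) exceeds all columns of the 4 tissues in each group, and in the chromosome 6 group with 5 calls the hypothalamus sums of 69.1 and 80.9 lie beside the adrenal sums of 84.2 and 73.9.

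A group on chromosome 7 (9865669 to 10274413) held 3 calls of 4 tested and had the largest sums, 183 and 168 in adrenal gland, against 2.36 to 13.2. TCONS_00096637, given above, is one of them. The other two overlap Zfp347, a zinc finger gene that RefSeq also lists as Giot2. TCONS_00096625 had 14.7 and 26.9 in adrenal gland, against liver at 0.456 and 0, cortex at 0.309 and 0.196, outer medulla at 0.534 and 0.504, and left ventricle at 0.567 and 0.661. It was higher in both adrenal columns (difference 4.81, SE 0.76, limma adjusted p = 0.0069), but the call was lost without adrenal column 2 (0.075) or left ventricle column 1 (0.059). TCONS_00096626 had 8.15 and 4.91 in adrenal gland, against at most 1.46 in the 4 tissues (difference 2.13, SE 0.35, limma adjusted p = 0.0084). The fourth transcript, TCONS_00096639 (184 bases), had 72.7 and 52.7 in adrenal gland, against 0 and 4.87 in liver, 0 in both columns of cortex and of outer medulla, and 3.78 and 1.5 in left ventricle. It was not called over all 4 tissues (difference to left ventricle 4.64, limma adjusted p = 0.19).

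Zbtb7c, which encodes a zinc finger protein with a BTB domain, gave 2 calls on chromosome 18 through transcripts that share a splice junction with it. TCONS_00049158 had 2.52 and 1.89 in adrenal gland, with at most 0.165 in the 4 tissues (difference 3.74, SE 0.54, limma adjusted p = 0.0046). TCONS_00049159 had 1.62 and 1.46 in adrenal gland, with at most 0.258 elsewhere in the 4 (difference 2.32, SE 0.33, limma adjusted p = 0.0041). Promoter windows of both named zinc finger genes are shown because more than 1 called transcript was assigned to each. They are RefSeq sequences of the gene's annotated start on GRCr8, 300 bases around that start, both on the plus strand, and are not known to be the start of the lncRNAs. Capitals mark CCAAT in the first and GGGCGG in the second.
Zfp347 (chr7:8117749-8118048): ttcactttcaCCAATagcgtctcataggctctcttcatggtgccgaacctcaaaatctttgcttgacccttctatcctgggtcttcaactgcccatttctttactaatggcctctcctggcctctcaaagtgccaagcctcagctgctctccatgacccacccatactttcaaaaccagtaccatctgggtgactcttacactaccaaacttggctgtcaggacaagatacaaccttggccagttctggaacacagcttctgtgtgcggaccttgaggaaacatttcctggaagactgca
Zbtb7c (chr18:71716399-71716698): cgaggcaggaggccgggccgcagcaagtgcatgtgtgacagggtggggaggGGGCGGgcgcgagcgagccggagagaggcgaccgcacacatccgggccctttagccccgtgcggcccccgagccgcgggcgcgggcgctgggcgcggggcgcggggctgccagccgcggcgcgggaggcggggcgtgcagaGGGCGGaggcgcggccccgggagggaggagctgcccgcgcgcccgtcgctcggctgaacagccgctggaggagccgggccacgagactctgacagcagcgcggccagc

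Both strands were searched for 5 motifs. CAAGGTCA, the letters bound by the steroidogenic factor NR5A1, the AGGTCA contained in it, and TGACGTCA, the cyclic AMP response element, were in neither window. Of 33469 RefSeq promoters of that length, 1.52% held CAAGGTCA, 16.2% AGGTCA and 1.83% TGACGTCA. CCAAT occurred 1 time in the Zfp347 window, and in 37.5% of all promoters. GGGCGG occurred 2 times in the Zbtb7c window, and in 33.1% of all promoters.

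On chromosome 6, 3 loci between 142821642 and 143062780 (rn5) gave 5 calls of 5 tested. In all, 19 transcripts had values there, and those not tested were below the FPKM minimum. The interval includes miRNA genes that in mouse belong to the imprinted Dlk1-Dio3 domain, whose maternal allele produces long non-coding host transcripts of many small RNAs. The group summed to 84.2 and 73.9 in adrenal gland, against 0.319 to 3.11 in the 4 tissues. TCONS_00090635, which overlaps ENSRNOG00000041744, had 47.1 and 43.0 in adrenal gland, against liver at 0.274 and 1.99, cortex at 0.102 and 0.532, outer medulla at 0.167 and 0.185, and left ventricle at 1.02 and 1.08. The columns were well separated (difference 5.30, SE 0.84, limma adjusted p = 0.0069), but the call was lost without adrenal column 1 (0.071), adrenal column 2 (0.063) or left ventricle column 1 (0.058). TCONS_00090674 and TCONS_00090673, chosen after their values were seen, had 24.5 and 19.9, and 5.34 and 4.66, in adrenal gland. TCONS_00090695, which overlaps rno-mir-679, had 0.895 and 1.30 in adrenal gland, with at most 0.0899 in the 4 tissues (difference 2.83, SE 0.25, limma adjusted p = 6.2e-04). TCONS_00090724, which overlaps rno-mir-6331, had 0.906 and 1.14 in adrenal gland, with at most 0.0471 in the 4 tissues (difference 3.07, SE 0.26, limma adjusted p = 5.6e-04). Without adrenal column 2, TCONS_00090695 and TCONS_00090724 were both below the FPKM minimum and were not tested, so their calls were lost. TCONS_00090713 at Mir666 and TCONS_00090717 at Mir667 were at 0.592 and 0.429, and 0.426 and 0.641, in adrenal gland. They were below the FPKM minimum and were not tested.

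The mature miRNAs of this interval are shown because they are the named small RNAs that called or neighbouring transcripts overlap. The table holds no level of the miRNAs themselves. Of 4 miRNA symbols, 3 matched RefSeq (GRCr8, chromosome 6, plus strand), and the capitals mark the seed, bases 2 to 8 from the 5′ end. The 5 seeds all differ.
rno-miR-666-5p: aGCGGGCAcggcugugagag
rno-miR-666-3p: gGCUGCAGcgugaucgccugcuc
rno-miR-667-5p: cGGUGCUGguggagcagugagcac
rno-miR-667-3p: uGACACCUgccacccagcccaa
rno-miR-6331: cUUUGGUGgcuuaguucuuugugc

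Other symbols among the calls came with single-digit levels. Gm10563, a symbol in the style of predicted mouse genes, had an antisense transcript, TCONS_00070158, at 2.83 and 2.10 in adrenal gland, with at most 2.4e-04 in the 4 tissues (difference 4.67, SE 0.21, limma adjusted p = 2.7e-05). A further antisense transcript there, TCONS_00070160, had 2.42 and 0.467 in adrenal gland (limma adjusted p = 0.035). Its call was lost without any 1 of the 8 columns of the 4 tissues, where the difference was 2.51 to 3.32. Without adrenal column 1 it was below the FPKM minimum and was not tested, so the call was lost there too. Nkain3, whose protein interacts with the sodium pump, shared a junction with TCONS_00084718. That transcript had 1.74 and 0.840 in adrenal gland, with at most 0.122 in the 4 tissues (difference 2.95, SE 0.46, limma adjusted p = 0.0067). Without adrenal column 1, TCONS_00084718 was below the FPKM minimum and was not tested, so its call was lost. Antisense to Ash2l, a subunit of histone H3 lysine methyltransferase complexes, TCONS_00043735 had 1.46 and 1.18 in adrenal gland, against at most 0.254 (difference 2.77, SE 0.60, limma adjusted p = 0.030), and its call was lost without any 1 of the columns except left ventricle column 2 (0.058 to 0.201). Of transcripts with no reference gene, TCONS_00026459 (chromosome 12) had 11.5 and 11.3 in adrenal gland, against left ventricle at 0 and 0.849, outer medulla at 0.249 and 0.355, and liver and cortex at 0 (difference 4.85, SE 0.92, limma adjusted p = 0.016). That call was lost without either adrenal column, either outer medulla column, cortex column 1 or liver column 2 (0.053 to 0.123). On chromosome 5 (128650671 to 128676438), all 3 tested transcripts of a locus were called. They had between 2.17 and 3.51 in adrenal gland, with at most 0.203 in the 4 tissues.

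The calls were also counted by the class of a transcript relative to reference genes. Transcripts with another exon overlap gave 20 calls of 105 tested (19%), those with no reference gene 79 of 864 (9.14%), antisense ones 9 of 101 (8.91%), those sharing a splice junction 4 of 68 (5.88%) and full matches 1 of 43 (2.33%), beside 9.57% overall. Most calls of the first share came from the chromosome 9 groups, whose members share intervals, so no difference between classes is read from it. Called transcripts ran from 195 to 16882 bases with a median of 1486, beside 1563 for tested transcripts that were not called. With detection set at a mean FPKM of 0.5, adrenal gland had 653 transcripts of 1650 detected in any of the 5 tissues. Of the 653, 208 (31.9%) were detected in adrenal gland alone among the 5, and 211 were detected in all 5.

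Hypothalamus was left out of the comparison, and its levels of the 113 are given as a description. The column code of hypothalamus was matched to its label by elimination. The 113 had a median of 12.3 and 5.87% of their mean adrenal level in the hypothalamus columns. Both hypothalamus columns exceeded all 8 columns of the 4 tissues for 44 of the 113, beside 66 of all 1181 tested (5.59%) and 22 of the 1068 tested but not called (2.06%). The 113 were chosen for low values in those 8 columns, which makes such an excess more likely, and the tested transcripts were chosen without regard to hypothalamus, so nothing is read from this count. Without adrenal column 2, 24 of these 44 were still called, and without adrenal column 1, 29 were. The mean in hypothalamus was below 10% of the mean in adrenal gland for 62, and it was above the adrenal mean for 8. The FPKM minimum was applied anew to the adrenal column that stayed, so part of these losses came from leaving the test. TCONS_00028980 (0.856), TCONS_00058133 (0.952), TCONS_00090695 (0.895) and TCONS_00111812 (0.572), all among the 8, were below 1 in adrenal column 1. In adrenal column 2 each of them was above 1. Losses without adrenal column 1 and without adrenal column 2 are therefore not compared.

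**Figure D4:**
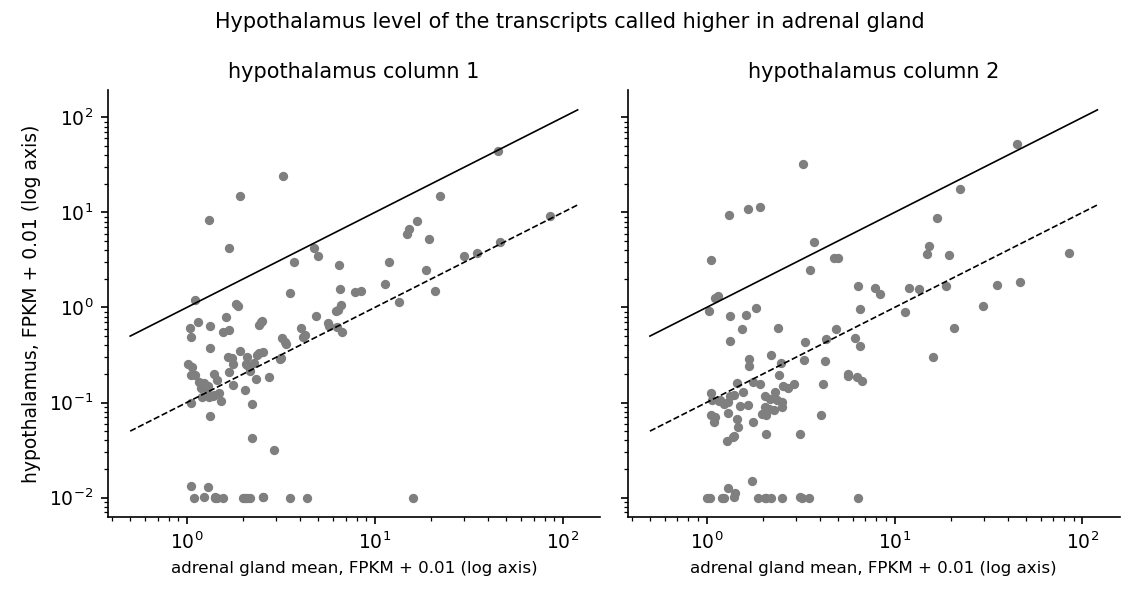
Level in hypothalamus column 1 (left) and column 2 (right) of the 113 called transcripts against their mean adrenal gland level, both as FPKM + 0.01 on log axes. The solid line marks equal levels and the dashed line 10% of the adrenal level. Column 1 lies near the dashed line (median 12.3%) and column 2 lower (median 5.87%), and 8 transcripts have a hypothalamus mean above the adrenal mean.

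Single transcripts differed widely in this respect. TCONS_00090635 stood at 47.1 and 43.0 in adrenal gland, beside 44.2 and 52.4 FPKM in hypothalamus. TCONS_00074679 (chromosome 4) had 19.8 and 14.0 in adrenal gland, with 8.06 and 8.83 in hypothalamus, against 0 and 1.46 in left ventricle with at most 0.137 in the other 6 columns (limma adjusted p = 0.031). Its call was lost without any 1 column of adrenal gland, liver, cortex or outer medulla (0.071 to 0.23). Near 0 in hypothalamus were TCONS_00074459, with 0 and 0.295, and TCONS_00084718, with 0.0028 and 0.0025. TCONS_00111810 (chromosome X), chosen after its values were seen, had 1.14 and 5.37 in adrenal gland, while hypothalamus had 24.3 and 32.2. It was higher in adrenal column 2, the column that also held more of the transcripts high in hypothalamus. The part of that overlap in these calls was not tested beyond leaving columns out.

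Against single tissues, 186 to 208 transcripts were higher in adrenal gland and 160 to 263 lower. All 4 pairs share the adrenal columns. Against liver, 208 of 721 were higher (28.8%) and 243 lower (33.7%). Against cortex, 192 of 712 were higher (27.0%) and 263 lower (36.9%). Against outer medulla, 186 of 657 were higher (28.3%) and 200 lower (30.4%). Against left ventricle, 193 of 610 were higher (31.6%) and 160 lower (26.2%). Dividing each column by its median ratio to the mean column moved the median log2 difference by -0.05 against liver, 0.17 against cortex, 0.24 against outer medulla and -0.12 against left ventricle, over the 721, 699, 632 and 610 transcripts tested in both fits. It turned the balance against outer medulla to 208 higher and 155 lower, and gave 188 higher and 186 lower against left ventricle. The balance against outer medulla was also turned without adrenal column 2 (168 higher, 163 lower) and with a minimum FPKM of 2 (113 higher, 91 lower). Against left ventricle it turned without adrenal column 1 (154 higher, 162 lower), and against liver with no minimum FPKM (313 higher, 259 lower).

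**Figure D5:**
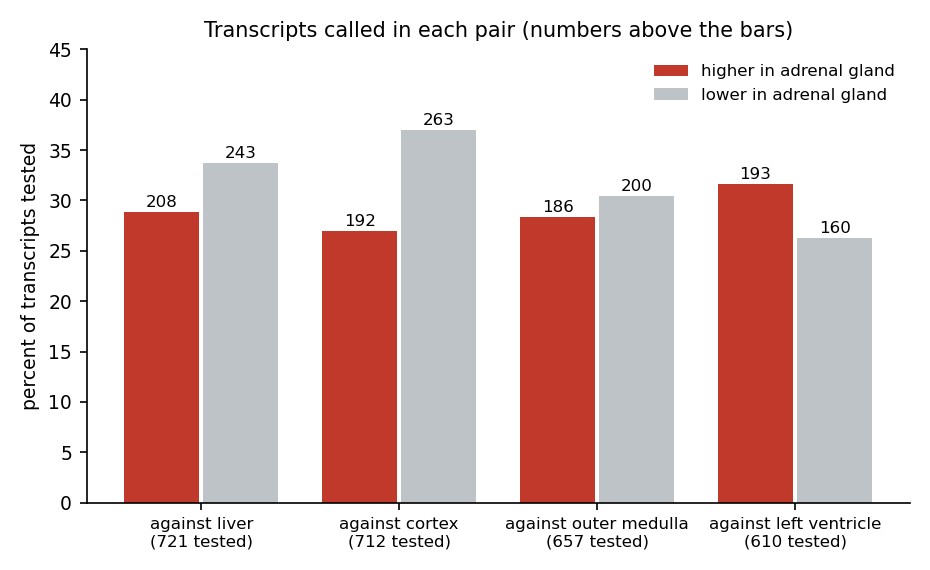
Percent of tested transcripts called higher (red) and lower (grey) in adrenal gland against each of the 4 tissues, with the counts above the bars. More were lower than higher against liver, cortex and outer medulla, and more were higher against left ventricle, but the balance turned against outer medulla with rescaled columns (208 higher, 155 lower) or without adrenal column 2 (168, 163), against left ventricle without adrenal column 1 (154, 162) and against liver with no minimum FPKM (313, 259).

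The transcripts with the largest differences in the lower direction mostly had little in adrenal gland. TCONS_00058886 (chromosome 2) had 0 and 0.172 in adrenal gland, against 543 and 1217 in liver (difference -12.27, SE 0.77, limma adjusted p = 2.2e-05). TCONS_00047225, antisense to Akr1c19, an aldo-keto reductase gene, had 0.0506 and 0.117 in adrenal gland, against 42.3 and 137 in liver (difference -8.72, limma adjusted p = 6.0e-05). Against cortex, TCONS_00015341 was listed at 0 in both adrenal columns, against 15.4 and 12.3 in cortex (difference -7.11, limma adjusted p = 6.4e-04). TCONS_00005817, which shares a junction with Glyat, the glycine conjugation enzyme of liver and kidney, had 0.438 and 0.109 in adrenal gland, against 43.5 and 42.3 in cortex (difference -7.00, limma adjusted p = 1.8e-04). Against outer medulla, TCONS_00037997 had 1.92 and 0.157 in adrenal gland, against 96.0 and 97.2 in outer medulla (difference -7.07, limma adjusted p = 0.0015), so its adrenal columns were far apart. TCONS_00057726 had 0.0486 and 0 in adrenal gland, against 16.6 and 8.37 in outer medulla (difference -6.61, limma adjusted p = 4.0e-05). The largest such difference to left ventricle was that of TCONS_00060042, with 0 and 1.02 in adrenal gland, against 118 and 103 in left ventricle (difference -8.36, limma adjusted p = 5.1e-04). TCONS_00054657 had 0.124 and 0.0713 in adrenal gland, against 36.1 and 34.8 in left ventricle (difference -7.50, limma adjusted p = 4.7e-05).

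Members of the lists of genes known in adrenal gland or in other cells were few, and 0 of them were called in either direction over the 4 tissues by limma, beside 9.57% of all transcripts called higher. The lists were adrenal cortex (1 of 24 symbols found), adrenal medulla (0 of 22), hepatocyte (4 of 10), cardiomyocyte (0 of 10), kidney tubule (1 of 10), neuron (1 of 10), glia (1 of 7), brown fat (0 of 5), steroid and cholesterol metabolism (2 of 20), imprinted genes (2 of 20) and known lncRNAs (1 of 20). Sox2, a glial and progenitor factor, had 4 overlapping transcripts, all untested, which summed to 0 and 1.1 in adrenal gland. TCONS_00077984, antisense to the neuronal member Dlx6, was at 0 and 0.0298 in adrenal gland. TCONS_00067610, which overlaps Slc12a1, the salt carrier of the kidney loop, had 1.5 and 0.146 in adrenal gland, against 36.5 and 36.6 in outer medulla.

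Of the imprinted genes, Plagl1, a zinc finger growth regulator, shared a junction with TCONS_00000085. It had 6.12 and 5.30 in adrenal gland, against liver at 0.113 and 0.176, cortex at 1.64 and 1.59, outer medulla at 1.99 and 2.87, and left ventricle at 0.266 and 0.507. The columns did not overlap, the difference to outer medulla was 1.22 (SE 0.36), and the call over all 4 tissues was missed (limma adjusted p = 0.11). TCONS_00012142 overlaps Mir675, the miRNA within H19, and had 13.3 and 16.1 in adrenal gland, against 39.2 and 100 in liver. TCONS_00072731, which shares a junction with Snhg11, a host of a small nucleolar RNA, had 0 and 1.76 in adrenal gland, against 2.76 and 2.23 in outer medulla. TCONS_00056419, assigned to the fibrinogen gene Fga, had 1.42 and 1.16 in adrenal gland and was listed at 0 in both liver columns. The other 3 hepatocyte members are antisense transcripts and were low in adrenal gland. TCONS_00008160, antisense to Slc27a5, was listed at 0 in both adrenal columns, against 8.41 and 4.97 in liver. TCONS_00032321, antisense to Afp, was also at 0 in both, against 1.41 and 0.679 in liver. TCONS_00047227, antisense to Akr1c12, had 0.0465 and 0.0178 in adrenal gland, against 5.79 and 43.8 in liver.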

How the data were processed

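RNA was measured by sequencing in 6 rat tissues. Per the labels' protocols, TRIzol and the TruSeq Stranded RNA LT kit were used, and per the submitters' processing notes the build was rn5 with bcl2fastq 2.15.0. The authors deposited FPKM for transcripts selected as lncRNAs, with transcript length as another value. Per the file headers, columns follow the naming of Cufflinks tracking output. The aligner, FPKM program, annotation, strand setting and lncRNA criteria were not stated (not given in the sources used here). Whether coordinates count from 0 or 1 is not stated. Of 2458 transcripts, 3 without values were left out.

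limma 3.58.1 (R 4.3.3) with a mean-variance trend was fitted on log2(FPKM + 0.1) over 10 columns with tissue as factor. The added 0.1 understates changes of low transcripts. A pair was tested over transcripts whose mean FPKM reached 1 in either tissue. Each fit with 1 column left out applied the FPKM minimum anew, so a transcript could also lose its call by leaving the test. Python 3.11.15, pandas 2.3.3, NumPy 2.4.6 and SciPy 1.17.1 did the rest, and the tests were tested on simulated data. Depth was read from steps in the low values of 944 transcripts over 500 bases, alone at their locus, with a fragment of 140 bases assumed after seeing the fit. A whole number of fragments, within 0.15, was met by 69.6 to 83.2% of the values per column. Multiples of a depth scored nearly as well and the lowest was taken. That choice was made after the values were seen and with earlier estimates known, so the depths are approximate and no count test was run.

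The comparison and the lists were chosen with earlier results of these data known. Named transcripts were the 8 most abundant in adrenal gland, the 12 calls with the largest difference to the next tissue (1 per locus), at most 6 called lower, up to 15 higher calls with a gene symbol, all list members, loci with 3 or more calls, and the 3 largest changes per pair and direction. Some of these stand only in counts. The alternatives were other pseudocounts, FPKM minimums, scalings, columns and summaries. Neighbours were joined within 1000000 bases.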

Additional observations from a re-analysis of the deposited data

Results flagged for a closer look

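The flagged count concerns columns that the comparison did not use. Of the 113 transcripts called higher in adrenal gland than in liver, cortex, outer medulla and left ventricle, 44 also had both hypothalamus columns above all 8 columns of those 4 tissues, beside 66 of all 1181 tested (5.59%) and 22 of the 1068 tested but not called (2.06%). The 113 were chosen for low values in those 8 columns, so nothing is read from this count. The column code of hypothalamus was matched to its label by elimination. Column 2 of adrenal gland also held more of the transcripts that were high in hypothalamus (median 21.1% of their hypothalamus level, against 4.02% in column 1), and without that column 24 of the 44 were still called. The part of this in the result was not tested further.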

How the results depend on the processing

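The count of 113 higher calls was 40 with a pseudocount of 0.01 (39 of them among the 113), 66 with a minimum FPKM of 2 and 210 against the mean of the 4 tissues, and 83 to 103 when 1 column was left out. Taking away the 8 calls with as much in hypothalamus as in adrenal gland leaves 105, which is no further test of the count. Of the 113, 61 were called in every leave-one-out fit. The count of 0 lower calls was 2 with a pseudocount of 0.01, 423 against the mean of the 4 tissues, 1 by a 5-fold rule in every column, and 0 in each leave-one-out fit. A minimum of 2 left fewer transcripts to call in each pair: liver higher 115, cortex higher 113 and lower 135, outer medulla higher 113 and lower 91, left ventricle higher 104 and lower 92. Without a minimum, liver higher was 313 and outer medulla lower 343, and with a minimum of 0.5 outer medulla lower was 315. Detection in adrenal gland gave 1247 transcripts at FPKM 0.1, 404 at 1 and 199 at 2. The 10 most abundant loci held 63.97% of adrenal FPKM.

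The column numbers were not shown to pair the samples: the column differences of 2 tissues correlated at -0.05 to 0.15. With the number as a replicate block, 107 transcripts were called higher, and of the named calls TCONS_00074679 and TCONS_00106163 were lost. Of 53 named log2 differences, 31 kept their call under every alternative in which the transcript was tested. The call was lost under at least 1 of these for 22, and 0 turned. Calls lost only by leaving the test are not in the 22, such as TCONS_00090695 and TCONS_00090724 without adrenal column 2. Of the 22, 18 lost their call with a pseudocount of 0.01. The cause was not tested. The other counts stayed within 1.5 times. Low values of liver column 2, with 3870000 implied fragments, are the least precise.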
